A study of Homo sapiens with 6 samples.

Results

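The translation initiation and elongation factors are the proteins that place ribosomes on mRNA and move them along it. In initiation, eIF2 carries the initiator tRNA to the small ribosomal subunit, eIF3, eIF1 and eIF1A hold that complex ready to scan, and the eIF4 proteins bind the mRNA cap and unwind the leader. The factors eIF5, eIF5B and eIF6 act around start codon recognition and joining of the large subunit. In elongation, eEF1A delivers each aminoacyl-tRNA, the other eEF1 proteins recharge eEF1A with GTP, and eEF2 shifts the ribosome by a codon. Many mRNAs of this machinery begin with a C and a run of pyrimidines, the 5' terminal oligopyrimidine (TOP) motif, through which mTORC1 and LARP1 regulate their translation.

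Members were taken by gene symbol, from the stems EIF1 to EIF6, EEF1 and EEF2. The eIF2 kinases (EIF2AK), the eEF2 kinase (EEF2K), symbols with a hyphen and symbols that end in P and digits were left out. That name rule also removed EIF4EBP1, EIF4EBP2 and EIF4EBP3, the eIF4E-binding repressors, which are therefore given with the regulators. Of 69 symbols with these stems, 14 were left out by name and 55 met the symbol rule, among 25268 symbols in all. Levels are in FPKM, which counts fragments per kilobase of a transcript relative to all mapped fragments. A gene had to reach 1 FPKM in 2 of the 6 libraries, which 49 of the 55 members and 12169 genes in all did. These were 4 members of the eIF1 and eIF1A group, 5 eIF2, 5 eIF2B, 12 eIF3, 11 eIF4, 5 eIF5 and eIF6, 6 eEF1 and 1 eEF2. Of the 49, all but EEF1A1 were above 0 in every library, and medians below are over those 48.

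RNA came from A673, a human Ewing sarcoma cell line with the fusion gene EWSR1-FLI1. Cells were taken 72 h after they received esiRNA, a mixture of siRNAs cut enzymatically from a long double strand. The groups were esiGFP (the non-targeting control), esiFLI1 (which lowers the fusion) and esiUSP9X (against a deubiquitinase), with 2 libraries each, and the study concerns the stability of the fusion protein under USP9X. The groups share the line, the culture medium, the transfection and the time, and the labels do not say whether the replicates were separate cultures, so p-values measure the spread between these samples only.

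The symbols not passing the filter were few. EIF1AY and EIF4E1B were listed at 0 in all 6 libraries. EIF4E3, a cap-binding relative of EIF4E, lay between 0.479 and 0.967 FPKM, and EIF5AL1, a near copy of EIF5A, between 0.211 and 0.426. EIF3C, a core subunit of eIF3, lay between 0 and 0.0631 FPKM, and EIF3CL, its near-identical copy, between 0 and 0.0180. As these are near-identical copies, the values of both are uncertain.

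Start sites are shown first because the TOP motif is the feature by which this family is best known. RefSeq start sites on build GRCh38.p14 matched 41 of the 49 members by symbol. The motif searched was a C at the start site followed by at least 4 more pyrimidines, on the transcript strand only, and a gene with several listed start sites counted if any met it. It was found for 12 of the 41 members (29.3%), against 7.72% of the 9062 genes passing the filter that had a start site, and 4.07% of all 35116 start sites. The windows below run from 10 bases before the start site to its base 20, 5' to 3', with the pyrimidine run in capitals. EEF2 and EIF3M are shown as TOP-type members lower after esiFLI1, EEF1B2, EIF3F and EIF4A2 as TOP-type members that were not called, and EIF4A1 because it fell while its paralogue EIF4A2 did not.
EEF2 (chr19:3985444-3985473, minus strand): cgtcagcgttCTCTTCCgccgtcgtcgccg
EIF3M (chr11:32583821-32583850, plus strand): gcccagttccCTTTTCCggtcggcgtggtc
EEF1B2 (chr2:206159885-206159914, plus strand): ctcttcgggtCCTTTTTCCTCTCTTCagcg
EIF3F (chr11:7987327-7987356, plus strand): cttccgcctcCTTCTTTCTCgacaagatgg
EIF4A2 (chr3:186783567-186783596, plus strand): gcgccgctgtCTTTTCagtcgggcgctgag
EIF4A1 (chr17:7572815-7572844, plus strand): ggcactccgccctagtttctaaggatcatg
The EIF4A1 start has a pyrimidine run of 3 bases, short of the 5 asked for. The others with the motif were EEF1A1, EIF2A, EIF2D, EIF2S3, EIF3D, EIF3K and EIF4B. Which start site A673 cells use was not analysed here.

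Each library's FPKM summed to between 781732 and 907926, and the read depth behind it is unknown. The symbol MIR6723 took 33.9% and 41.8% of that sum in esiGFP, 35.8% and 50.9% in esiFLI1, and 33.2% and 42.6% in esiUSP9X. Checking the targets, the esiGFP libraries held FLI1 at 24.1 and 36.4 FPKM and those of esiFLI1 at 12.7 and 14.1, while USP9X was at 20.6 and 26.5 in the control and at 5.31 and 7.10 after its own esiRNA. Of 6 Ewing sarcoma markers 5 passed the filter (CD99 was listed at 0 in every library), and their summed level was 292 and 335 FPKM in esiGFP, 134 and 174 in esiFLI1, and 329 and 321 in esiUSP9X. The endothelial markers summed to 0.205 and 0.153 FPKM in esiGFP and to 1.51 and 1.56 in esiFLI1, and 1 of 4, KDR, passed the filter. KDR was at 0.106 and 0.0885 FPKM in esiGFP, and at 1.30 and 1.33 it made up nearly all of the esiFLI1 sums. PECAM1 (0.0496 and 0.0305 FPKM in esiGFP, 0.143 and 0.169 in esiFLI1), CDH5 and TEK did not pass the filter. None of the 4 epithelial or 4 leukocyte markers passed it, with summed levels of at most 0.362 and 0.282 FPKM. Both marker lists that moved with esiFLI1 moved beside the results below, and their part in them was not tested.

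Levels of the members spanned a wide range. By mean FPKM over the 6 libraries, which is a level per kilobase, EEF1A1 led, followed by EIF4A1, EEF2, EEF1G, EEF1B2, EIF4G2, EIF5A, EIF3M and EEF1D. In esiGFP alone, EIF4A1, an RNA helicase of the cap complex, was at 1136 ± 132 FPKM (SD, n = 2), EEF2 at 890 ± 193, EEF1G at 796 ± 236 and EEF1B2 at 695 ± 58.1. Neighbours in that order from EEF2 down to EEF1B2 lay within their SDs of each other. At the other end were the less widely expressed paralogues EIF5A2, at 4.88 ± 1.96 FPKM in esiGFP, and EEF1A2, at 3.62 ± 2.40. The subunits of a complex were not level with each other: in esiGFP, the eIF3 members ran from 95.8 ± 34.5 FPKM for EIF3F to 456 ± 122 for EIF3M, while the 5 eIF2B subunits stayed between 29.0 ± 4.71 (EIF2B4) and 54.5 ± 5.66 (EIF2B2).

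EEF1A1, the main form of eEF1A, had no value in the control. It was listed at 0 in both esiGFP libraries, at 2928 and 3160 FPKM in esiFLI1 and at 3197 and 3578 in esiUSP9X. A gene that every cell needs at 0 can be a failed estimate, so no fold is given, and its calls against esiGFP are named apart where members are counted. Between the knockdowns, where both groups had values, its log2 difference was 0.15 (esiUSP9X minus esiFLI1, SE 0.096 in limma's blocked fit, adjusted p = 0.24).

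Most translation factors had lower RNA after esiFLI1 than in the control. The median log2 change over the 48 members was -0.38, which is 0.771 of the control level, against -0.03 over all genes tested. With a filter of 5 FPKM the medians were -0.37 and -0.09, and the members were not compared with genes of like level. With the filter of 1 FPKM, the change was below 0 for 43 of the 48 members, against 6429 of the 12062 genes with values above 0 in every library. The change was below 0 in both replicate-wise differences for 39 of the 49 members and above 0 in both for 4, EEF1A1 included. Over all 12169 genes these counts were 5321 and 4688. The largest falls were in EEF1E1, EIF2B3, EIF4A1, EIF3M and EIF2S2, and among members above 0 in all libraries EIF4G3 alone was called higher. The summed FPKM of the 48 was 9672 and 9730 in esiGFP, 7910 and 6953 in esiFLI1, and 9782 and 9053 in esiUSP9X. Both esiFLI1 sums lay below the other 4. The 12 eIF3 subunits showed the same order, with 2287 and 2762 in esiGFP against 1903 and 1913 in esiFLI1. Of the member groups, only eEF1 (without EEF1A1) overlapped between esiGFP and esiFLI1, with 2225 and 1825 against 1988 and 1301. As a share of the sum without MIR6723, the 48 took 1.8% and 1.88% in esiGFP against 1.58% and 1.56% in esiFLI1. The eIF3 shares overlapped (0.426% and 0.535% against 0.379% and 0.429%). Those of eEF1 and eIF4 did too, and those of the other groups did not. In bulk RNA, fewer cells with a transcript and less of it per cell cannot be told apart, and FPKM shows only a transcript's share of its library.

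**Figure D1:**
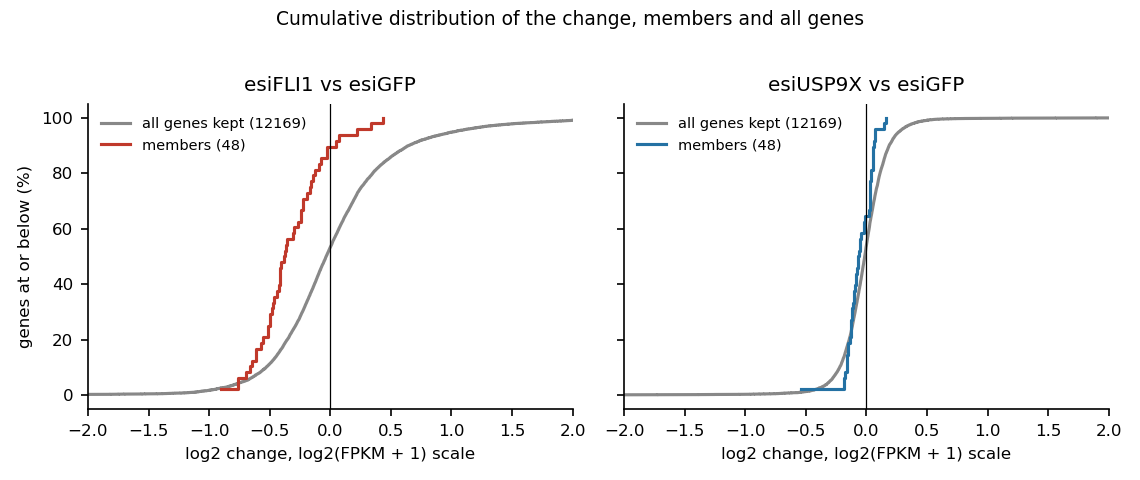
Share of genes at or below each log2 change on the log2(FPKM + 1) scale, for the 48 members and for all 12169 genes tested. The members' curve lies left of that of all genes after esiFLI1 (medians -0.38 and -0.03) and close to it after esiUSP9X (-0.06 and -0.01).

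Calls depended on how the replicates were modelled. Limma was fitted to log2(FPKM + 1) of all genes with Benjamini-Hochberg adjustment, and calls needed an adjusted p under 0.05. Without a block, no member was called lower after esiFLI1 and EEF1A1 was the only member called higher. The target FLI1, with a log2 change of -1.09, was not called in that fit either (limma's adjusted p = 0.13, and 4.4e-04 with the block described below). The unadjusted p was under 0.05 for 7 of the 49 members, EEF1A1 included, against 1923 of the 12169 genes. Over all genes this fit called 0.23% lower and 2.58% higher. With the replicate number as a block, 27 members fell (55.1% of 49) and EIF4G3 rose, with EEF1A1 the other call upward. Over all genes the blocked fit called 21.6% lower and 20.6% higher. The libraries of the groups did not overlap for 20 members lower (40.8%) and 2 higher, against 17.3% and 19.8% of all genes. The 2 higher were EIF4G3 and EEF1A1, which was listed at 0 in esiGFP. Below, "fell" and "rose" refer to the blocked fit. None of the 27 members that fell, nor EIF4G3, was called without a block. Of the 27 falls, 10 were called in each of the 11 fits made with the block (the reported fit, another pseudocount, a stricter filter, 2 other scalings and each of the 6 libraries left out): EEF1D, EEF1E1, EIF1, EIF2A, EIF2B3, EIF2S2, EIF3B, EIF3M, EIF4A1 and EIF4H. Leaving out esiFLI1 2 reduced the 29 calls, EEF1A1 included, to 13, and leaving out esiGFP 2 reduced them to 15.

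Rescaling the libraries without MIR6723, whose share was highest in esiFLI1 2, moved the median of all genes in this comparison by 0.13, from -0.03 to 0.10. The members' median went to -0.24, and relative to all genes it was -0.34, against -0.35 as deposited. With that scaling the blocked fit called 17 members lower and 3 higher (EEF1A2, EIF4A2 and EIF4G3), against 12.7% of all genes lower and 28.1% higher. Quantile normalization brought the members to 0.19 below all genes (medians -0.24 and -0.06). It gave 18 falls and 2 rises among the members, against 20.8% of all genes lower and 17.9% higher. The relative position of the members was thus below all genes under each of the 3 scalings, with 43, 37 and 38 of 48 members below 0.

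**Figure D2:**
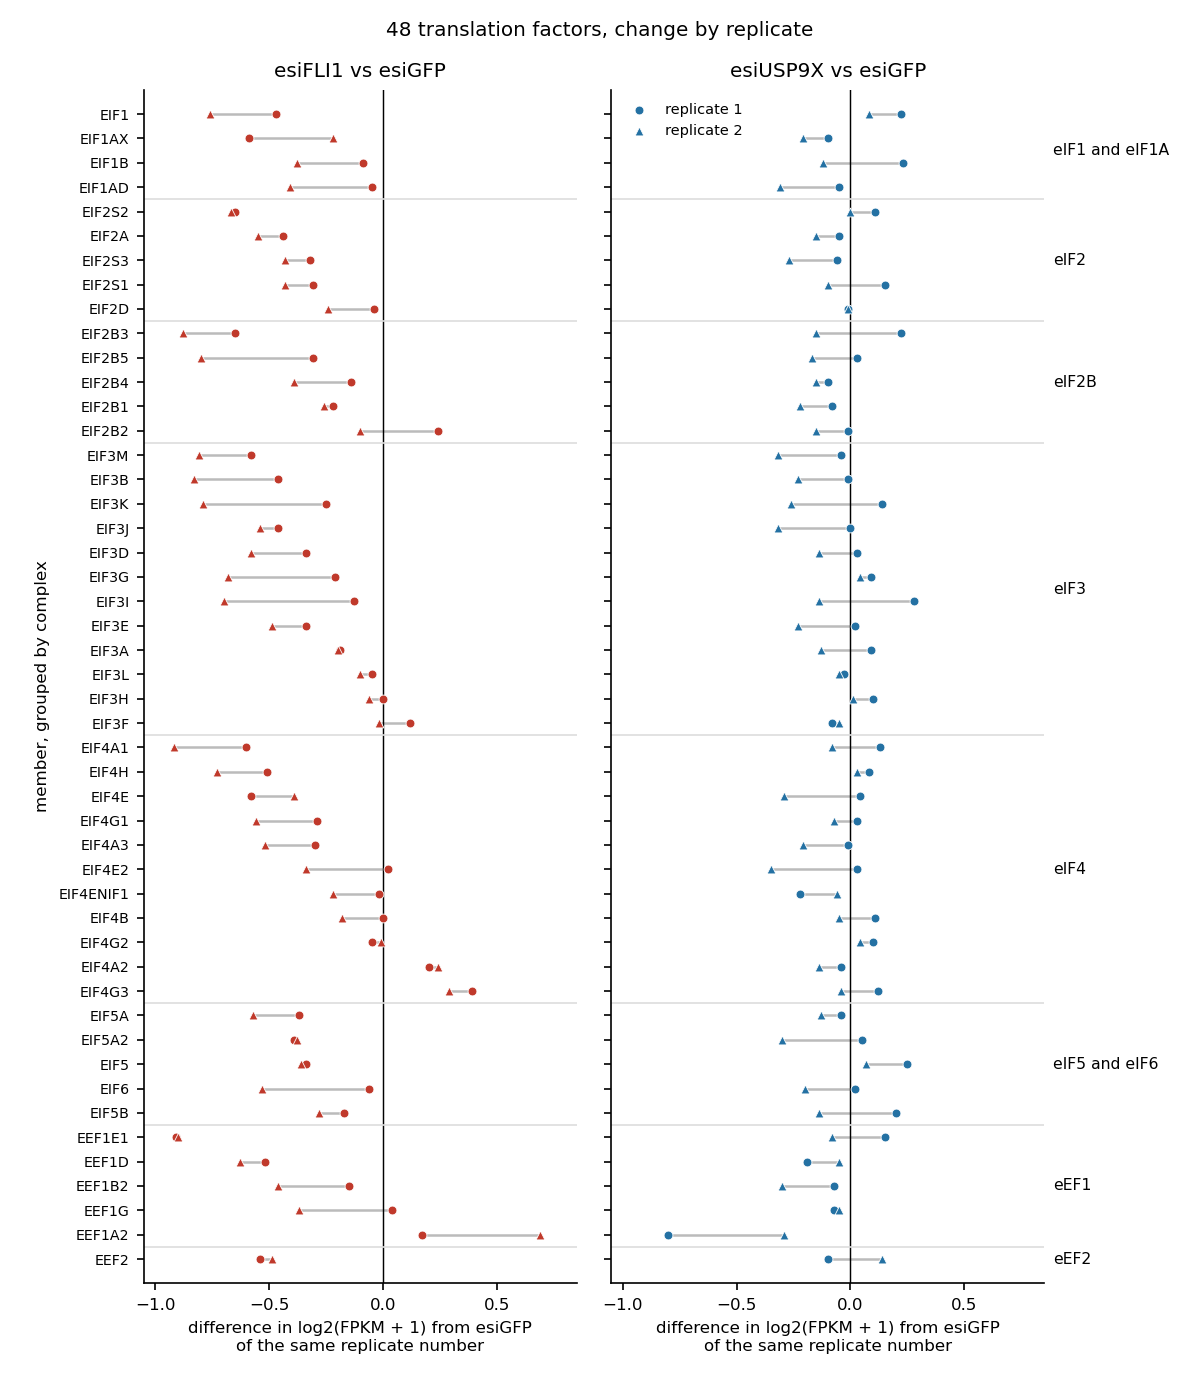
Difference of log2(FPKM + 1) from the esiGFP library of the same replicate number, for 48 members grouped by complex, with circles for replicate 1 and triangles for replicate 2. After esiFLI1 both points lie left of 0 for 39 members, and after esiUSP9X the points lie on both sides.

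In the eIF1 and eIF1A group, 2 of 4 members fell, with a median of -0.32. EIF1AD, in the group by its symbol only, changed by -0.23 and was not called (limma's blocked adjusted p = 0.16). EIF1, which guards start codon choice, was at 166 and 141 FPKM in esiGFP, 119 and 82.7 in esiFLI1, and 193 and 149 in esiUSP9X. Both esiFLI1 values lay under the other 4, and EIF1 fell by 0.62 on the log2 scale (blocked SE 0.10, limma's blocked adjusted p = 0.003, and 0.35 without a block). EIF1AX, the X-linked eIF1A, was at 89.8 and 123 FPKM in esiGFP, 59.2 and 106 in esiFLI1, and 83.9 and 107 in esiUSP9X, so its groups overlapped. It fell by 0.41 (limma's blocked adjusted p = 0.036, and 0.69 without a block), a call that ended under both other scalings and without esiGFP 1 or esiFLI1 1 (up to 0.23). EIF1B, the close paralogue of EIF1, was at 29.6 and 25.1 FPKM in esiGFP, 27.7 and 19.0 in esiFLI1, and 34.8 and 23.0 in esiUSP9X, and its change of -0.24 was not called (limma's blocked adjusted p = 0.13).

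Of the 10 members of the eIF2 and eIF2B groups, 6 fell. EIF2S2, the beta subunit of eIF2, was at 151 and 146 FPKM in esiGFP, 95.3 and 91.3 in esiFLI1, and 162 and 147 in esiUSP9X. Replicates were close together here, with SDs of 2.97 and 2.84 in the first pair of groups, and EIF2S2 fell by 0.66 (blocked SE 0.093, limma's blocked adjusted p = 0.0012, and 0.12 without a block). EIF2S3, the GTP-binding gamma subunit, was at 103 and 130 FPKM in esiGFP, 81.9 and 96.7 in esiFLI1, and 98.5 and 108 in esiUSP9X. It fell by 0.37 (limma's blocked adjusted p = 0.018, and 0.49 without a block), a call that ended under both other scalings and without esiGFP 2, esiFLI1 1 or esiFLI1 2 (up to 0.19). EIF2S1, the alpha subunit that the stress kinases phosphorylate, fell by 0.37 too (limma's blocked adjusted p = 0.022), so all 3 subunits of eIF2 were called lower, but its call ended under both other scalings and without esiGFP 2, esiFLI1 1 or esiFLI1 2 (up to 0.25). EIF2A, an alternative carrier of initiator tRNA and no subunit of eIF2, fell by 0.50 (limma's blocked adjusted p = 0.0047, and 0.62 without a block), while EIF2D changed by -0.14 without a call. In eIF2B, EIF2B3, the gamma subunit, was at 31.1 and 32.2 FPKM in esiGFP, 19.5 and 17.0 in esiFLI1, and 36.4 and 29.0 in esiUSP9X. It fell by 0.77 (blocked SE 0.11, limma's blocked adjusted p = 0.0017, and 0.14 without a block). EIF2B5, the catalytic epsilon subunit, fell by 0.56 (limma's blocked adjusted p = 0.011), a call lost without esiGFP 2 or esiFLI1 2 (up to 0.097), while EIF2B1, EIF2B2 and EIF2B4 changed by -0.24, 0.07 and -0.26 without a call.

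The eIF3 scaffold had the largest number of falls, 8 of 12 subunits, with a median of -0.43. EIF3M was at 370 and 542 FPKM in esiGFP, 246 and 309 in esiFLI1, and 360 and 433 in esiUSP9X. It fell by 0.70 (blocked SE 0.11, limma's blocked adjusted p = 0.002, and 0.29 without a block). EIF3B, a core subunit, was at 202 and 197 FPKM in esiGFP, 146 and 110 in esiFLI1, and 201 and 168 in esiUSP9X, with no overlap between esiFLI1 and the rest. It fell by 0.65 (blocked SE 0.11, limma's blocked adjusted p = 0.0033, and 0.23 without a block). EIF3E was at 295 and 412 FPKM in esiGFP, 233 and 293 in esiFLI1, and 298 and 351 in esiUSP9X, and fell by 0.41 (limma's blocked adjusted p = 0.014, and 0.53 without a block). That call ended when scaled without MIR6723 and without esiGFP 2 or either esiFLI1 library (up to 0.14). EIF3K, EIF3J, EIF3D, EIF3G and EIF3I fell by 0.52, 0.50, 0.46, 0.44 and 0.42, and each lost its call without esiGFP 2 and without esiFLI1 2. EIF3J also lost it without esiFLI1 1, EIF3G and EIF3I under both other scalings, and EIF3I without either esiUSP9X library, for which limma's blocked adjusted p reached 0.49. The other subunits, EIF3A, EIF3L, EIF3H and EIF3F, changed by -0.20, -0.07, -0.03 and 0.05 and were not called. For the lowest and highest changes of the 12, picked after the values were seen, the unadjusted blocked 95% intervals were -0.95 to -0.45 (EIF3M) and -0.18 to 0.27 (EIF3F). Without a block the SEs of these changes were 0.26 and 0.45. Whether the subunits differed in their size of change was not tested.

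**Figure D3:**
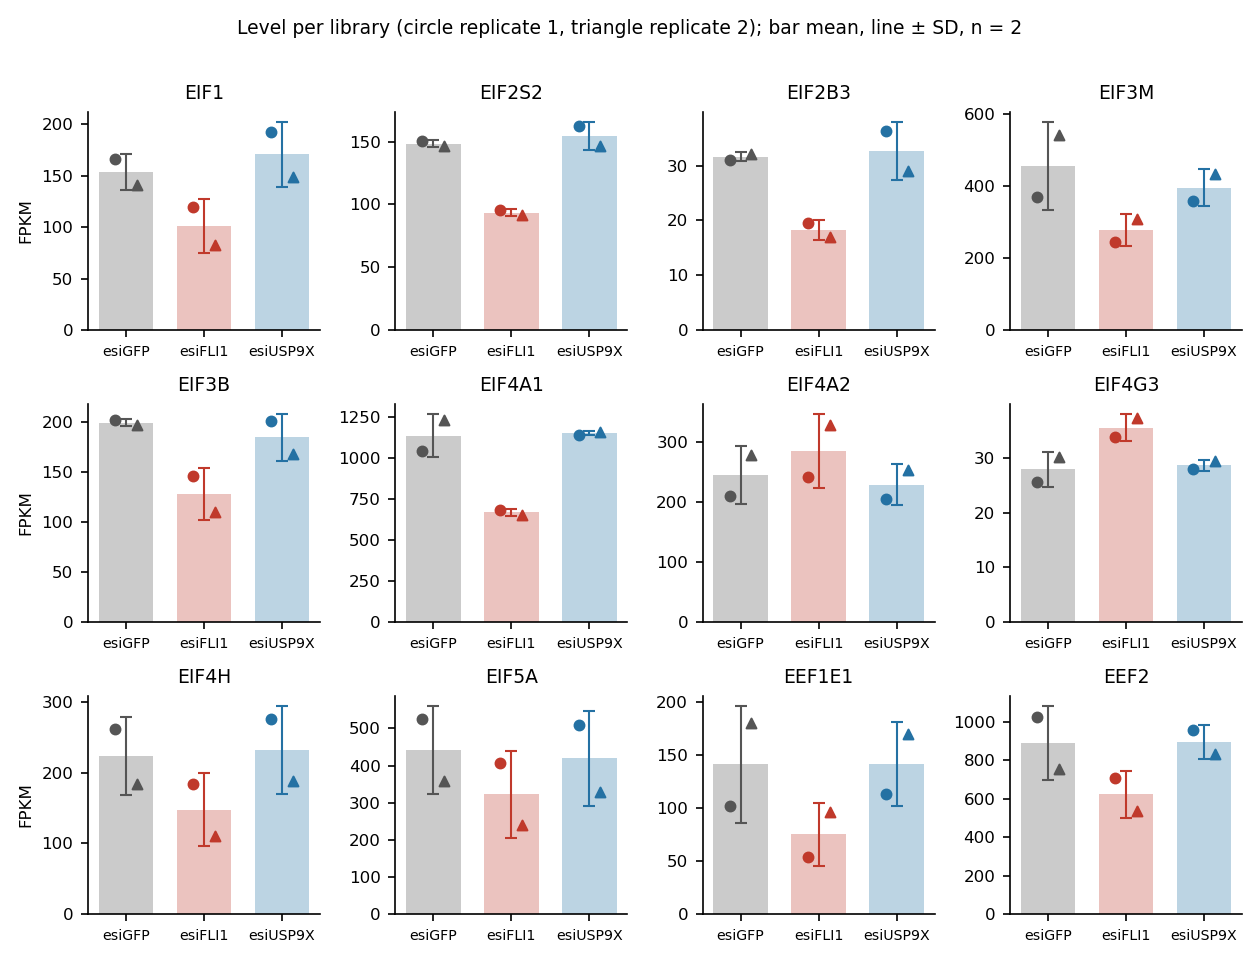
FPKM of 12 members in every library, with bars for the group mean, lines for the SD (n = 2), circles for replicate 1 and triangles for replicate 2. In EIF2S2, EIF2B3, EIF3B and EIF4A1 both esiFLI1 libraries lie below the other 4, while EIF4A2 overlaps between groups and EIF4G3 is highest in esiFLI1.

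The eIF4 proteins moved in both directions. EIF4A1 was at 1043 and 1230 FPKM in esiGFP, 685 and 652 in esiFLI1, and 1144 and 1162 in esiUSP9X. Its esiFLI1 libraries were far below the rest, and it fell by 0.76 (blocked SE 0.11, limma's blocked adjusted p = 0.0017, and 0.099 without a block). EIF4H, which stimulates the eIF4A helicase, was at 262 and 184 FPKM in esiGFP, 184 and 111 in esiFLI1, and 276 and 189 in esiUSP9X, and fell by 0.62 (blocked SE 0.10, limma's blocked adjusted p = 0.0025, and 0.52 without a block). EIF4E, the cap-binding protein, was at 58.1 and 94.1 FPKM in esiGFP, 38.4 and 71.8 in esiFLI1, and 59.7 and 76.9 in esiUSP9X. The groups overlapped, and it fell by 0.48 (limma's blocked adjusted p = 0.021, and 0.68 without a block), a call that ended under both other scalings and without esiFLI1 1 (up to 0.16). EIF4G1, the main scaffold of the cap complex, fell by 0.43, and EIF4A3, the eIF4A relative of the exon junction complex, by 0.41, both with calls lost under quantile normalization and without esiGFP 2 or esiFLI1 2, and for EIF4A3 also when rescaled without MIR6723 (limma's blocked adjusted p = 0.013 and 0.014, up to 0.13 and 0.18).

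Upward was EIF4G3, the second eIF4G scaffold, at 25.6 and 30.2 FPKM in esiGFP, 33.8 and 37.3 in esiFLI1, and 27.9 and 29.4 in esiUSP9X. Its esiFLI1 values were the highest of the 6, and it rose by 0.34 (blocked SE 0.096, limma's blocked adjusted p = 0.024, and 0.48 without a block), but the call ended when any of the esiGFP or esiFLI1 libraries was left out (up to 0.22). EIF4A2, the second eIF4A helicase, was at 210 and 279 FPKM in esiGFP, 242 and 329 in esiFLI1, and 204 and 253 in esiUSP9X, with a change of 0.22 (limma's blocked adjusted p = 0.10, 0.014 to 0.35 over the alternatives). EIF4G2, a scaffold relative without the eIF4E-binding part, was at 431 and 524 FPKM in esiGFP, 416 and 522 in esiFLI1, and 463 and 539 in esiUSP9X. Its change of -0.03 was not called and had the other sign under both other scalings (0.21 with quantile normalization and 0.13 without MIR6723). EIF4E2, a cap-binding relative that represses translation, was at 58.7 and 57.9 FPKM in esiGFP, 59.6 and 45.4 in esiFLI1, and 59.9 and 45.3 in esiUSP9X, and its change of -0.16 was not called (limma's blocked adjusted p = 0.31).

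In the eIF5 and eIF6 group, EIF5A, EIF5 and EIF5A2 fell, and EIF6 and EIF5B were not called. EIF5A, the hypusine-bearing factor that helps ribosomes over difficult codons, was at 526 and 357 FPKM in esiGFP, 406 and 240 in esiFLI1, and 510 and 328 in esiUSP9X. It fell by 0.47 (limma's blocked adjusted p = 0.0076, and 0.67 without a block), and without esiFLI1 2 the blocked value was 0.062. EIF5, which triggers GTP hydrolysis by eIF2, fell by 0.35 (limma's blocked adjusted p = 0.022), a call lost under both other scalings and without esiGFP 2 or either esiFLI1 library (up to 0.19). EIF5A2 was at 3.50 and 6.26 FPKM in esiGFP, 2.44 and 4.56 in esiFLI1, and 3.65 and 4.90 in esiUSP9X. Its fall of 0.38 on the log2 scale (limma's blocked adjusted p = 0.042, and 0.73 without a block) lost its call without esiGFP 2 or either esiFLI1 library, and when scaled without MIR6723 (up to 0.25). EIF6, which keeps the ribosomal subunits apart, was at 139 and 113 FPKM in esiGFP, 133 and 77.6 in esiFLI1, and 141 and 98.3 in esiUSP9X, a change of -0.30 (limma's blocked adjusted p = 0.091, 0.018 to 0.64 over the alternatives).

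In the eEF1 and eEF2 groups, EEF2 and 2 of the 6 eEF1 members fell. EEF2 was at 1026 and 754 FPKM in esiGFP, 707 and 537 in esiFLI1, and 959 and 831 in esiUSP9X. It fell by 0.51 (blocked SE 0.11, limma's blocked adjusted p = 0.0071, and 0.42 without a block), and without esiFLI1 2 the blocked value was 0.058. EEF1E1, which sits in the multi-tRNA synthetase complex rather than in eEF1 itself, was at 102 and 180 FPKM in esiGFP, 53.9 and 95.8 in esiFLI1, and 113 and 169 in esiUSP9X. It had the largest fall of the 48, 0.90 on the log2 scale (blocked SE 0.10, limma's blocked adjusted p = 5e-04, and 0.42 without a block), with -0.91 and -0.90 in the replicates. A read-through symbol that overlaps it, EEF1E1-BLOC1S5, was listed at 0.0118 FPKM in esiGFP 1 and at 4.85 to 8.39 in the other 5 libraries, so fragments may be split between these symbols. EEF1D, an exchange factor subunit, fell by 0.57 (limma's blocked adjusted p = 0.0039, and 0.68 without a block), although its groups overlapped.

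The other eEF1 members were not called. EEF1G, the gamma subunit, was at 963 and 629 FPKM in esiGFP, 988 and 488 in esiFLI1, and 919 and 610 in esiUSP9X. The difference between its replicates exceeded any between its groups, and its change of -0.16 had the other sign, 0.06, with quantile normalization. EEF1B2 changed by -0.31 (limma's blocked adjusted p = 0.060). EEF1A2, the eEF1A of muscle and neurons, was at 5.32 and 1.92 FPKM in esiGFP, 6.11 and 3.72 in esiFLI1, and 2.63 and 1.39 in esiUSP9X. Its change after esiFLI1 was 0.43 (limma's blocked adjusted p = 0.053, 0.0017 to 0.55 over the alternatives).

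TOP-type members were set beside the rest. The 11 with the motif and values above 0 in all libraries had a median log2 change of -0.37 after esiFLI1, from -0.70 (EIF3M) to 0.22 (EIF4A2), and 6 of them fell. The 29 matched members without it had a median of -0.38, from -0.90 to 0.34, and 17 fell while 1 rose. These are descriptions of the 2 sets, and their difference was not tested.

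Within paralogue pairs, the ratio of levels in a single library is not changed by a constant factor applied to that library, such as the rescaling without MIR6723, while quantile normalization can change it. EIF4A1 over EIF4A2 was 4.96 and 4.41 in esiGFP, 2.83 and 1.98 in esiFLI1, and 5.60 and 4.60 in esiUSP9X. The log2 ratio was lower by 0.81 and 1.15 in the replicates after esiFLI1 and higher by 0.17 and 0.06 after esiUSP9X. EIF1 over EIF1B was 5.60 and 5.63 in esiGFP, 4.31 and 4.36 in esiFLI1, and 5.54 and 6.48 in esiUSP9X, with a log2 difference of -0.37 after esiFLI1. EIF4G1 over EIF4G3, a pair chosen after the values were seen, was 6.53 and 4.89 in esiGFP, 4.03 and 2.69 in esiFLI1, and 6.14 and 4.80 in esiUSP9X (-0.78). For these 3 pairs both esiFLI1 ratios lay below the other 4. An exact permutation test of 2 libraries against 2 cannot go below p = 0.333, so none is given.

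For EIF4E over EIF4E2 and EIF5A over EIF5A2 the ratios of all groups overlapped. EIF4E over EIF4E2 was 0.991 and 1.63 in esiGFP, 0.645 and 1.58 in esiFLI1, and 0.996 and 1.70 in esiUSP9X. EIF5A over EIF5A2 was 150.3 and 57.1 in esiGFP, 166 and 52.6 in esiFLI1, and 139.8 and 66.8 in esiUSP9X, a log2 difference of 0.01 after esiFLI1, while the replicates differed far more. EEF1A1 over EEF1A2 was 479.5 and 849.6 in esiFLI1 and 1217 and 2567 in esiUSP9X, so that both esiUSP9X ratios lay above both esiFLI1 ratios, and it has no value in esiGFP.

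**Figure D4:**
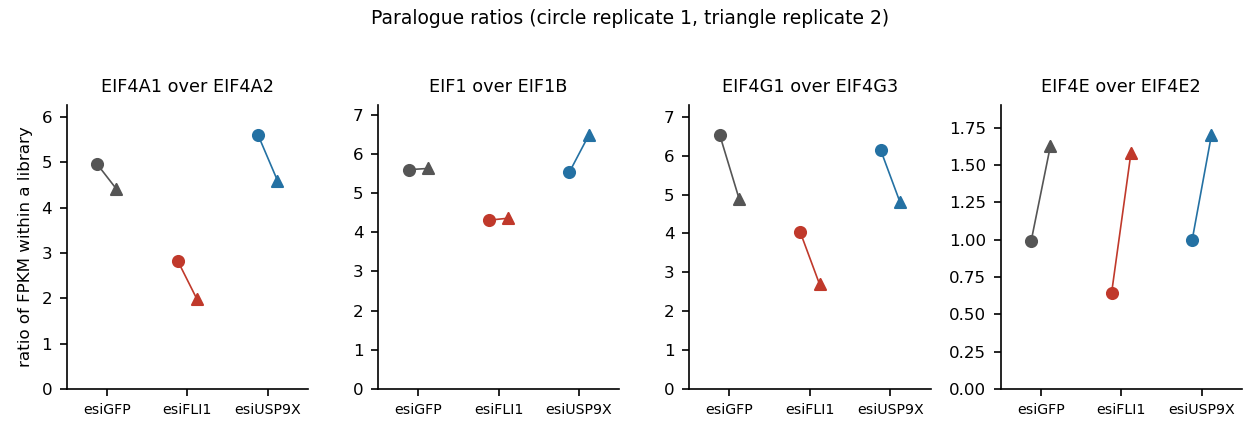
Ratio of FPKM within each library for 4 paralogue pairs, with circles for replicate 1 and triangles for replicate 2. Both esiFLI1 ratios are below the other 4 for EIF4A1 over EIF4A2, EIF1 over EIF1B and EIF4G1 over EIF4G3, and overlap them for EIF4E over EIF4E2.

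After esiUSP9X the translation factors stayed near the control. The median log2 change of the 48 was -0.06, against -0.01 over all genes, with 31 below 0 and 17 above. Among the 12062 genes with values above 0 in every library, the change was below 0 for 6516 and above 0 for 5546. Apart from EEF1A1, listed at 0 in the control, no member was called in either of limma's fits. An unadjusted p under 0.05 was reached by EEF1A1 alone without a block and by EEF1A1 and EEF1A2 with it. Of all 12169 genes, 114 reached it without a block and 1321 with it. Over all genes the fit without a block called 0.0247% higher and 0.0% lower, and the blocked fit 0.074% higher and 0.164% lower, so few genes of any kind were called. The target USP9X itself, with a log2 change of -1.77, was called in limma's blocked fit (adjusted p = 4.5e-04) but not without a block. A lack of calls without a block thus says little about the members. Among members, the libraries did not overlap for EEF1B2 and EIF4A3, both lower, and for EEF1A1, against 7.82% of all genes lower and 8.75% higher.

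The 95% intervals are per gene and unadjusted, so they give the precision of each change and not the smallest change that would be called. In the blocked fit, the 95% interval lay within 0.5 of 0 on the log2 scale for 47 of the 48 members, the exception being EEF1A2 (-0.54, from -0.90 to -0.19, adjusted p = 0.28, and 0.002 to 0.81 over the alternatives). For EIF4A1 the change was 0.03 (-0.24 to 0.29), for EEF1E1 0.03 (-0.21 to 0.27), for EIF2B3 0.04 (-0.23 to 0.30), for EIF3B -0.12 (-0.38 to 0.15) and for EEF2 0.02 (-0.23 to 0.27). Each of these intervals leaves out the size of the fall that the same gene had after esiFLI1, which holds for the blocked fit only. With the block the SEs of these 5 changes were 0.11, 0.10, 0.11, 0.11 and 0.11, in the same order. Without it they were 0.16, 0.43, 0.20, 0.21 and 0.24, and no intervals were made from that fit.

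The direct comparison of the knockdowns tests the difference of their effects, since both share the control. The median member was 0.30 higher in esiUSP9X than in esiFLI1, against 0.02 over all genes. The difference was above 0 for 42 of 48 members, against 6233 of the 12062 genes with values above 0 in every library. Limma without a block called none of the members, while 0.419% of all genes were called higher and 2.66% lower. In that fit 4 of the 49 members had an unadjusted p under 0.05, against 1931 of the 12169 genes. With the block, 23 members were higher and 3 lower, against 20.2% and 20.9% of all genes. Libraries did not overlap for 19 members higher and 3 lower, against 18.4% and 21.1% of all genes. The largest differences were 0.93 for EEF1E1 (limma's blocked adjusted p = 4.1e-04), 0.80 for EIF2B3 (0.0013), 0.79 for EIF4A1 (0.0014), 0.76 for EIF1 (0.0011) and 0.72 for EIF2S2 (8.6e-04). These 5 and EIF4H (0.67) were called in each of the 11 fits with the block, with a largest adjusted p of 0.035. Lower in esiUSP9X were EEF1A2 by -0.97 (limma's blocked adjusted p = 0.002, at most 0.041 over the alternatives), EIF4A2 by -0.31 (0.034, up to 0.27) and EIF4G3 by -0.30 (0.040, up to 0.23). The 26 calls became 9 without esiFLI1 2 or esiUSP9X 1, and 11 without esiUSP9X 2.

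Replicates of the 2 numbers differed in the same genes in every group. The difference of replicate 2 minus replicate 1 had the same sign in all 3 groups for 40 of the 48 members, higher in 17 and lower in 23. Across the members it correlated with r = 0.92 between esiGFP and esiFLI1, 0.94 between esiGFP and esiUSP9X and 0.96 between esiFLI1 and esiUSP9X, given as a description since genes of the same libraries are not independent. In esiGFP it ran from -1.11 (EEF1A2) to 0.81 (EEF1E1), and its median size was 0.33, beside a median esiFLI1 change of -0.38. EEF1D, for example, was lower in replicate 2 by 0.85, 0.97 and 0.71 in the 3 groups, and EIF5B was higher by 0.77, 0.65 and 0.42. What the replicate numbers stand for is not in the labels.

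**Figure D5:**
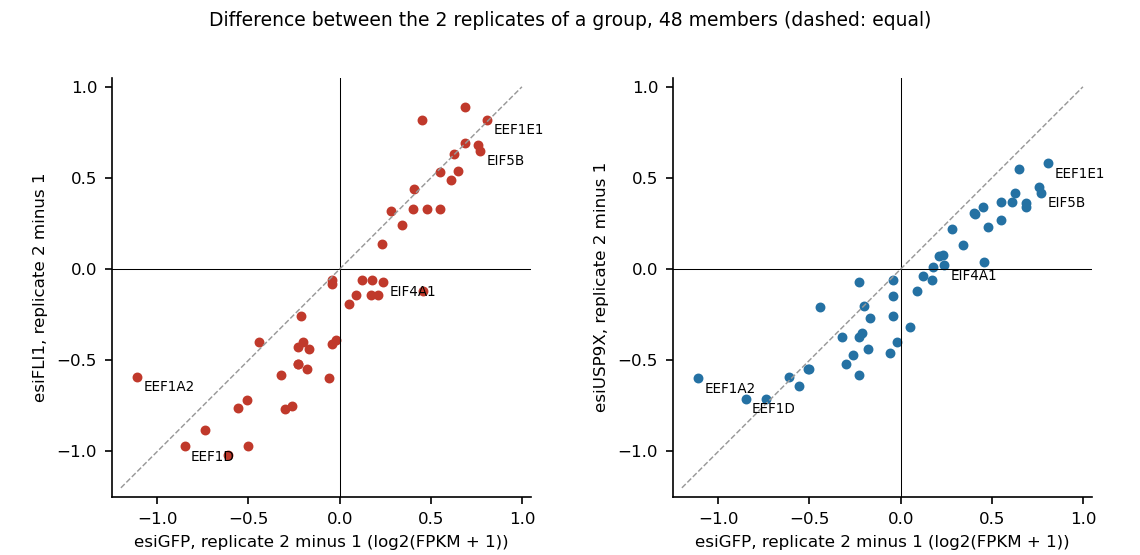
Replicate 2 minus replicate 1 on the log2(FPKM + 1) scale, in esiGFP against esiFLI1 (left) and against esiUSP9X (right), with a point per member and the dashed line marking equal values. The points follow the line, with 40 of 48 members on the same side of 0 in all 3 groups.

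Regulators and partners of these factors, and other translation genes, were counted from lists. In the integrated stress response, eIF2 kinases act on EIF2S1 and ATF4 drives the response genes. Of its 15 genes 6 fell after esiFLI1 (40%) and 1 rose (6.67%) with the block, against 21.6% and 20.6% of all genes. The list median was -0.08, and 2 genes (ASNS and DDIT3) were called lower without the block. TRIB3, a pseudokinase induced by ATF4, was at 51.5 and 23.1 FPKM in esiGFP, 9.38 and 4.73 in esiFLI1, and 43.8 and 22.7 in esiUSP9X, and fell by 2.21 (limma's blocked adjusted p = 1.1e-05, and 0.13 without a block). ASNS, asparagine synthetase, fell by 1.99 (limma's blocked adjusted p = 1.1e-05, and 0.014 without a block), and CHAC1, which degrades glutathione, fell by 1.74 (3.7e-04 and 0.19). Named after their values were seen, ATF4 itself was at 205 and 208 FPKM in esiGFP, 127 and 112 in esiFLI1, and 219 and 214 in esiUSP9X, and fell by 0.79 (limma's blocked adjusted p = 7.7e-04, and 0.084 without a block). The kinase EIF2AK3 (PERK) was at 3.005 and 3.99 FPKM in esiGFP, 6.72 and 7.82 in esiFLI1, and 4.08 and 4.64 in esiUSP9X, and rose by 0.88 (limma's blocked adjusted p = 6.7e-04, and 0.12 without a block). The calls of these 5 genes held in each of the 11 fits with the block (largest adjusted p 0.016). The kinases EIF2AK1, EIF2AK2 and EIF2AK4 changed by -0.05, -0.08 and 0.19 and were not called. ATF3 and PPP1R15A, also on this list, changed by -0.06 and 0.01 without a call (limma's blocked adjusted p = 0.74 and 0.93).

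Among 19 genes of the 4E-BPs and mTORC1 signalling, 5 fell (26.3%) and 2 rose (10.5%) with the block, against 21.6% and 20.6% of all genes, with a median of -0.07. EIF4EBP1, which sequesters EIF4E, was at 209 and 143 FPKM in esiGFP, 119 and 67.3 in esiFLI1, and 219.7 and 149.7 in esiUSP9X, and fell by 0.94 (blocked SE 0.11, limma's blocked adjusted p = 4.6e-04, and 0.32 without a block). PDCD4, an inhibitor of the EIF4A1 helicase, was at 5.03 and 5.61 FPKM in esiGFP, 13.2 and 21.2 in esiFLI1, and 5.50 and 7.20 in esiUSP9X, and rose by 1.49 (blocked SE 0.13, limma's blocked adjusted p = 1.9e-04, and 0.071 without a block). SESN2, which restrains mTORC1 when leucine is low, fell by 0.69 (0.0026 in limma's blocked fit, and 0.50 without a block). These 3 calls held in each of the 11 fits with the block too (largest adjusted p 0.028).

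The remaining lists held falls and no rise, where the blocked fit called 21.6% of all genes lower and 20.6% higher. Of 10 recruitment partners passing the filter 5 fell (50%), with a median of -0.31, led by DENR, a ribosome recycling and reinitiation factor, by 0.76 (limma's blocked adjusted p = 0.001, and 0.20 without a block). Of 13 genes that modify eEF1A, eEF2 or EIF5A 8 fell (61.5%), with a median of -0.43, among them DPH2 of the diphthamide pathway by 0.78 (limma's blocked adjusted p = 0.0073, and 0.50 without a block) and FAM86A, the methyltransferase of eEF2, by 0.60 (0.0063 and 0.28), both lost without esiFLI1 2 (0.071 and 0.055). Of 6 termination and recycling genes 2 fell (33.3%), including the release factor ETF1 by 0.53 (limma's blocked adjusted p = 0.0045, and 0.45 without a block). Of 9 mitochondrial translation factors 6 fell (66.7%), with a median of -0.34, including MRRF by 0.55, MTIF2 by 0.54 and TSFM by 0.34, which each lost the call without esiGFP 2 or esiFLI1 2 (up to 0.20). After esiUSP9X the blocked fit called none of the genes in these 6 lists. In it 2 of them (1 in the stress response and 1 in termination) had an unadjusted p under 0.05, against 1321 of 12169 genes.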

How the data were processed

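The authors deposited FPKM values per gene symbol, made from ribosomal RNA-depleted, stranded, single-end libraries per the labels' protocols. Per the submitters' processing notes the tools were Cuffdiff, Cufflinks and TopHat, and GRCh37 and hg19 are the builds listed. Versions, annotation and strand use in counting are not stated there, so near-identical copies and overlapping genes are uncertain. A stray line (1) was dropped, and 0 columns belonged to no sample. Log2(FPKM + 1) of the 12169 genes with at least 1 FPKM in 2 libraries, of which 107 were listed at 0 somewhere, went into limma 3.58.1 in R 4.3.3 (eBayes with trend, two-sided, 3 group means). A pseudocount of 1 understates the change of low genes. This fit had 3 residual and 2.21 prior degrees of freedom, and the fit with the replicate block 2 and 5.72.

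Labels number the replicates but state no shared day. The pairing was taken from the data: deviations from group means correlated across genes at 0.647 (esiGFP and esiFLI1), 0.589 (esiGFP and esiUSP9X) and 0.644 (esiFLI1 and esiUSP9X).

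Members, lists and alternatives were chosen with earlier results of these data known. Values in every library are given for members listed at 0, members called without a block, the 2 most abundant of each role group, up to 8 non-overlapping blocked calls per comparison and direction, and 5 paralogue pairs. At most 3 genes a list are named by that rule, and EWSR1 is not described. Other members named with a change were chosen after their values were seen. The fits were also run on simulated data that had an additive replicate effect built in. Such data cannot show whether the replicate block is right for these libraries. Python 3.11.15, pandas 2.3.3 and matplotlib 3.10.9 were used for counts and plots.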

Additional observations from a re-analysis of the deposited data

How the results depend on the processing

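Leaving genes listed at 0 out of the fit removed EEF1A1, so that 0 members were called against esiGFP after esiFLI1 or esiUSP9X. The replicate block moved the members called, EEF1A1 included, from 1 to 29 for esiFLI1 against esiGFP and from 0 to 26 for esiUSP9X against esiFLI1, and changed no count for esiUSP9X against esiGFP. Leaving out a library in the blocked fit gave 13 to 30 calls for esiFLI1 against esiGFP (13 without esiFLI1 2, 15 without esiGFP 2), 9 to 26 for esiUSP9X against esiFLI1 (9 without esiFLI1 2 or esiUSP9X 1, 11 without esiUSP9X 2), and 1 to 2 for esiUSP9X against esiGFP (2 without esiGFP 2), with EEF1A1 among the calls against esiGFP. The members' median was -0.24 after esiFLI1 with quantile normalization or without MIR6723 and ran from -0.39 to -0.23 with a library left out, or -0.46 to -0.29 with the block as well. For esiUSP9X against esiFLI1 it was 0.25 and 0.20 under those scalings and 0.24 to 0.32 with a library left out, or 0.21 to 0.39 with the block. After esiUSP9X it ran from -0.13 to 0.03 with a library left out.

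Over 37 changes of single genes and 886 alternative values, each set against the fit without a block, in which none of these changes was called, 585 kept direction and stayed uncalled, 283 became calls and 18 reversed, in 7 changes, all of esiFLI1 against esiGFP. Of the 27 members that fell in the blocked fit, 10 were called in all 11 fits with the block. EEF1G was 0.06 with quantile normalization in either fit, and EIF4G2 was 0.21 with it and 0.13 without MIR6723. With a library left out, the range was -0.13 to 0.99 for EEF1A2, -0.67 to 0.34 for EEF1G (-0.37 to 0.04 with the block), -0.82 to 0.01 for EIF1AX, -0.50 to 0.02 for EIF1B, -0.35 to 0.03 for EIF4E2, -0.19 to 0.13 for EIF4G2 and -0.68 to 0.09 for EIF6. The cause was not tested. The unknown read depth limits what low values can show, and with 2 libraries a group the blocked calls rest on a spread borrowed across genes.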
